A study of Saccharomyces cerevisiae with 79 samples.

Results

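IST1 (YNL265C), VPS29 (YHR012W), APS3 (YJL024C) and VMA10 (YHR039C-A) are 4 intron-bearing genes of Saccharomyces cerevisiae whose proteins serve the endosomes and the vacuole. They were taken by gene identifier from the targeted genes of a splicing time course, in which they make up 4 of 297 genes, each with 1 of the 308 targeted introns. RNA made after 4-thiouracil, a uracil analogue, was added to growing cultures was purified and sequenced by MPE-seq (multiplexed primer extension), in which reverse transcription from a primer downstream of each intron yields reads of either spliced or intron-holding RNA. For each intron there is a count of all reads and of unspliced ones, and a further count of those unspliced reads that come from the lariat intermediate, the RNA that has gone through the first chemical step of splicing but not the second. The strain prp2-1 is represented by 1 full time course with labelling times from 0 to 1320 s and the 0 s library of a second course (11 libraries). Its allele lies in PRP2, whose product is the DEAH-box ATPase that readies the spliceosome for that first step. The series called WT_30 is labelled as the wild-type strain BY4741 and has 2 courses of 10 libraries, from 0 to 3600 s. The series called WT is also BY4741 and has 3 courses of 10 libraries, from 0 to 990 s. All cultures were grown in synthetic medium. The labels name no temperature for any group, although prp2-1 is known as a temperature-sensitive allele, and for WT_30 they give other times and other spike-in RNA but no further difference from WT. No row of the tables covers PRP2 itself, so the strain labels could not be checked against that gene.

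Proteins bound for the vacuole, the yeast counterpart of the lysosome, reach it from the Golgi directly or by way of endosomes. IST1 encodes a regulator of the ESCRT-III machinery, which drives the budding of vesicles into the late endosome. VPS29 encodes a subunit of the retromer, the coat that returns sorting receptors from endosomes to the Golgi. APS3 encodes the small subunit of the AP-3 adaptor, which carries cargo from the Golgi straight to the vacuole. VMA10 encodes subunit G of the vacuolar ATPase, the proton pump that acidifies the vacuole. An intron is removed in 2 steps: the branch point adenosine first attacks the 5′ splice site, which makes the lariat intermediate, and the exons are then joined at the 3′ splice site.

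The introns are shown here because all 4 carry the same splice signals and differ in the spacing between them. They are given 5′ to 3′ on the sense strand, as read from RefSeq's R64 genome, with the 5′ splice site, the branch point motif and the 3′ splice site in capitals.

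IST1: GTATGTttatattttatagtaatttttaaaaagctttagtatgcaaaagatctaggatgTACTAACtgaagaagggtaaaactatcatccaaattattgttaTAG

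VPS29: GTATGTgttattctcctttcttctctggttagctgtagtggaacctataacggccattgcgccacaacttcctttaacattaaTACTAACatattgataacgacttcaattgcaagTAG

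APS3: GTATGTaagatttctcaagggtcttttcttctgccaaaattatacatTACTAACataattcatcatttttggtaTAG

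VMA10: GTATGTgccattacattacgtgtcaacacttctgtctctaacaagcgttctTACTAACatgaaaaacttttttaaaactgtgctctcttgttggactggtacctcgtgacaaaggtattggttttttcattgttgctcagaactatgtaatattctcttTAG

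In build R64 the IST1 intron lies at chrXIV:145150-145254 on the minus strand (105 nt), the VPS29 intron at chrVIII:129529-129647 on the plus strand (119 nt), the APS3 intron at chrX:396494-396570 on the minus strand (77 nt) and the VMA10 intron at chrVIII:187515-187676 on the minus strand (162 nt). Each interrupts the coding sequence near its start, after 27 nt in IST1, 48 nt in VPS29, 22 nt in APS3 and 3 nt in VMA10, and no other annotated gene overlaps any of them. All 4 begin with GTATGT, as do 72.1% of 258 introns of single-intron target genes, and hold TACTAAC once on the sense strand, which 82.9% of those introns hold. All 4 end in TAG, as do 50.4%. APS3 has the shortest of the 4 introns, and 9.3% of the 258 are shorter. From the branch point adenosine to the end of the intron there are 24 nt in APS3, 30 nt in VPS29, 40 nt in IST1 and 105 nt in VMA10, against a median of 35 nt over the 214 introns with TACTAAC. The VMA10 distance is the 8th longest of those 214. Reads that stop past the branch point, counted by the authors as a class of their own within the unspliced reads, made up 27.7% of VMA10's unspliced reads over all WT libraries, 23.3% of VPS29's (20 of 86 reads), 16.4% of IST1's and 1.72% of APS3's. In WT these shares did not follow the order of the distances, since VPS29, on few reads, has a shorter distance than IST1. In prp2-1 they did: 24.7% in VMA10, 15.3% in IST1, 5.56% in VPS29 (1 of 18 reads) and 3.37% in APS3. With so few VPS29 reads its place in the order is not settled.

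Labelled libraries held 388817 to 4440617 reads in prp2-1, 4155116 to 11674413 in WT_30 and 935805 to 8130197 in WT, while the unlabelled prp2-1 libraries had only 48248 and 77751. The depth of the 4 targets differed widely. A WT library had 2518 to 41788 reads of VMA10, 42 to 3491 of IST1 and 46 to 3263 of APS3, but 0 to 70 of VPS29. The number of reads also depends on each target's primer, so levels are compared between groups within a gene. Only the unspliced, lariat and past-branch-point shares of a gene's own reads are set side by side between genes. Counting intervals given here are 95% Wilson intervals and cover counting error only.

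APS3 kept the largest unspliced share of the 3 well-covered genes in WT, VMA10 an intermediate one and IST1 the smallest. Of the 27 labelled WT libraries, APS3 was above VMA10 in 27, VMA10 above IST1 in 26 and APS3 above IST1 in 27. At 120 s of labelling the unspliced share was 24.6%, 30.8% and 32.9% for APS3 in the 3 WT courses, 9.69%, 5.20% and 8.19% for VMA10, and 3.71%, 3.78% and 6.21% for IST1. At 990 s it was 6.07%, 6.79% and 8.04% for APS3, 1.06%, 0.907% and 0.984% for VMA10, and 0.611%, 0.757% and 0.392% for IST1. Over the sum of 150 to 990 s APS3 averaged 12.8% ± 2.01 (SD, n = 3 courses), 95th highest of 282 introns, VMA10 2.27% ± 0.215, the 209th, and IST1 1.36% ± 0.0425, the 234th, where the median intron had 7.37%.

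**Figure D1:**
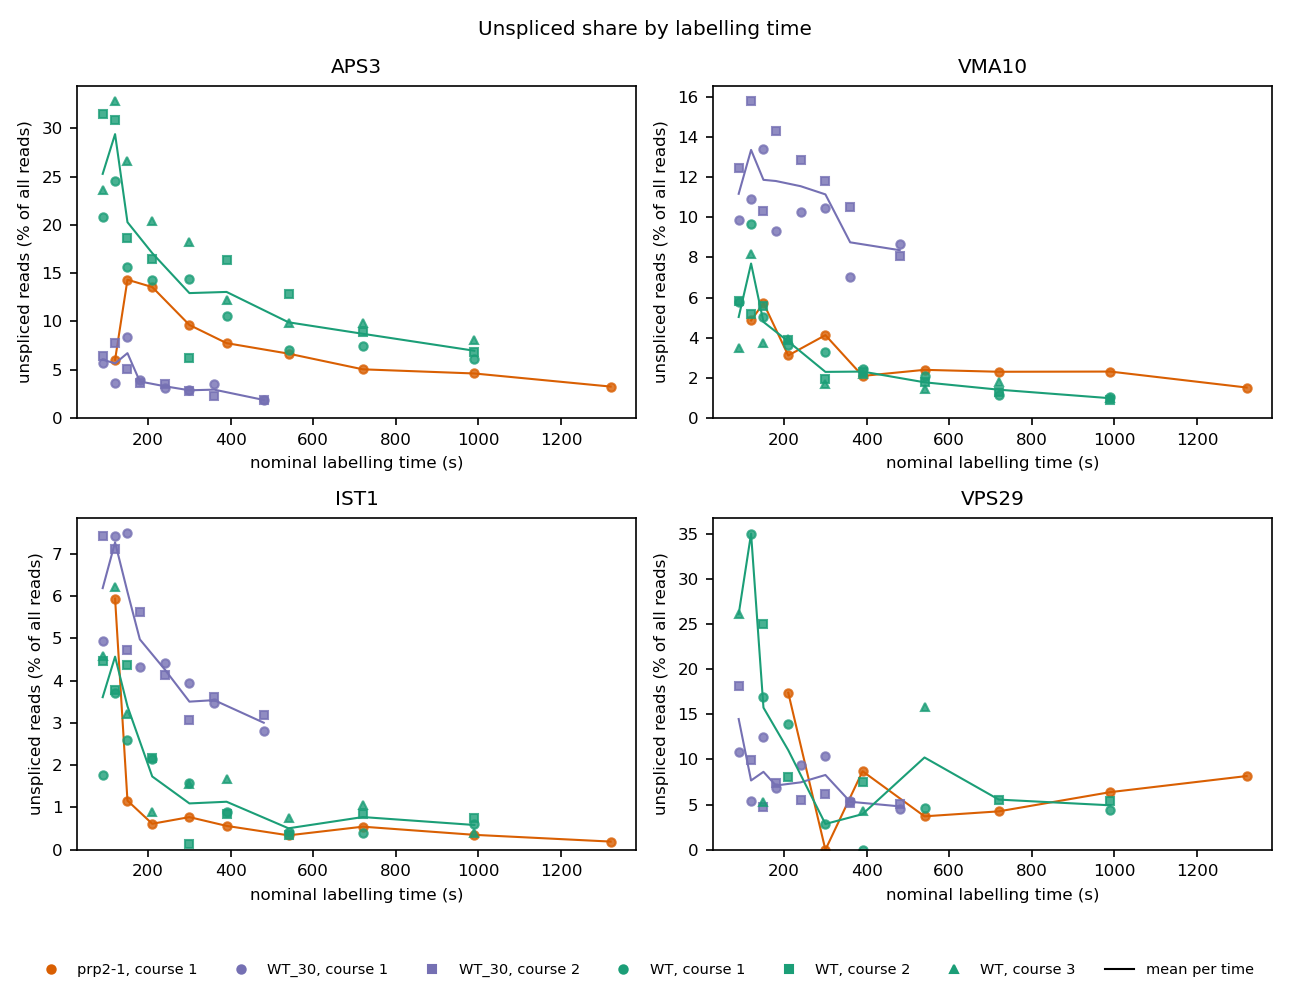
Unspliced reads as a percentage of all reads of the intron (linear axis) against nominal labelling time in seconds, for libraries with at least 20 reads of the intron; the 3600 s libraries of WT_30 are not drawn. Points are libraries, lines are means per time; in WT, APS3 averaged 29.4% at 120 s and 6.96% at 990 s, whereas all WT_30 libraries of APS3 drawn lie at or below 8.36%.

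The shares fell along the WT courses, as they did for most introns, and APS3, VMA10 and IST1 all passed the test. The test compared, over courses, unspliced against spliced reads between a late window (540, 720 and 990 s) and an early one (150, 210 and 300 s), and a call is an adjusted p below 0.05. APS3 had 6.68%, 9.13% and 9.29% unspliced reads in the late window of the 3 courses, against 14.7%, 15.9% and 21.4% in the early one, and the windows did not overlap (log2 change -1.19 ± 0.24 SE, adjusted p = 0.000356). VMA10 had 1.17%, 1.22% and 1.30% late, against 3.98%, 4.35% and 2.82% early (-1.61 ± 0.28, adjusted p = 0.000128). IST1 had 0.516%, 0.697% and 0.674% late, against 2.06%, 2.45% and 1.92% early (-1.78 ± 0.24, adjusted p = 2.3e-05). Each gene was lower late in 3 of 3 courses. Neither this nor the overlap of windows was counted over all introns. Of 275 introns tested 90.9% were lower and 1.45% higher, with a median change of -1.52, so the 3 calls are near the background. When each read state was scaled by trimmed means (TMM), which sets the typical intron near 0 (median -0.01), 17 introns were lower and 39 higher, the change was 0.32 in APS3, -0.09 in VMA10 and -0.28 in IST1, and none of the 3 passed (adjusted p = 0.318, 0.792 and 0.402).

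VPS29 had too few reads for that comparison. Its unspliced share was 6.67%, 7.06% and 15.8% in the late windows of the 3 WT courses, on 105, 85 and 57 reads, against 10.5%, 17.3% and 4.48% in the early windows, on 172, 75 and 67 reads. The windows overlapped, and the share was lower late in 2 of 3 courses. Over 150 to 990 s it was 8.33% (interval 5.71 to 12.01), 11% (7.38 to 16.1) and 8.84% (5.24 to 14.5). APS3 had 10.9% (10.3 to 11.4), 12.8% (12.3 to 13.4) and 14.9% (14.2 to 15.5). VPS29 thus lay below APS3 in each of the 3 courses, but the intervals overlapped, so their order is not settled at this depth. In single libraries VPS29 was above APS3 in 12 of 27, among them course 2 at 90 s (4 VPS29 reads) and course 3 at 990 s (2 reads).

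Against the spike-in RNA, spliced reads of APS3, VMA10 and IST1 climbed more than their unspliced reads did in the WT courses. Between 990 and 150 s the spliced reads per 1000 spike-in reads differed 15.0-, 15.3- and 12.8-fold for APS3 in the 3 courses, 15.1-, 18.7- and 13.6-fold for VMA10, and 12.1-, 14.7- and 11.6-fold for IST1. The unspliced reads differed 5.25-, 4.87- and 3.09-fold for APS3, 3.02-, 2.90- and 3.47-fold for VMA10, and 2.77-, 2.45- and 1.38-fold for IST1. Unspliced reads of APS3 stood at 136, 131 and 127 per 1000 spike-in reads at 990 s and at 26.0, 27.0 and 41.0 at 150 s. The spike-in mixture was not constant: 1 of its 5 RNAs took 15.6% to 45.8% of the spike-in reads across WT libraries. VPS29 rested on 2 to 59 reads a library at these times. Its spliced reads stood at 29.6, 31.3 and 1.005 per 1000 spike-in reads at 990 s and at 4.503, 2.06 and 3.45 at 150 s, so that course 3 was lower late, on 2 VPS29 reads in all. Its unspliced reads stood at 1.38, 1.79 and 1.005 at 990 s and at 0.919, 0.688 and 0.192 at 150 s. These values are descriptions, with no test.

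**Figure D2:**
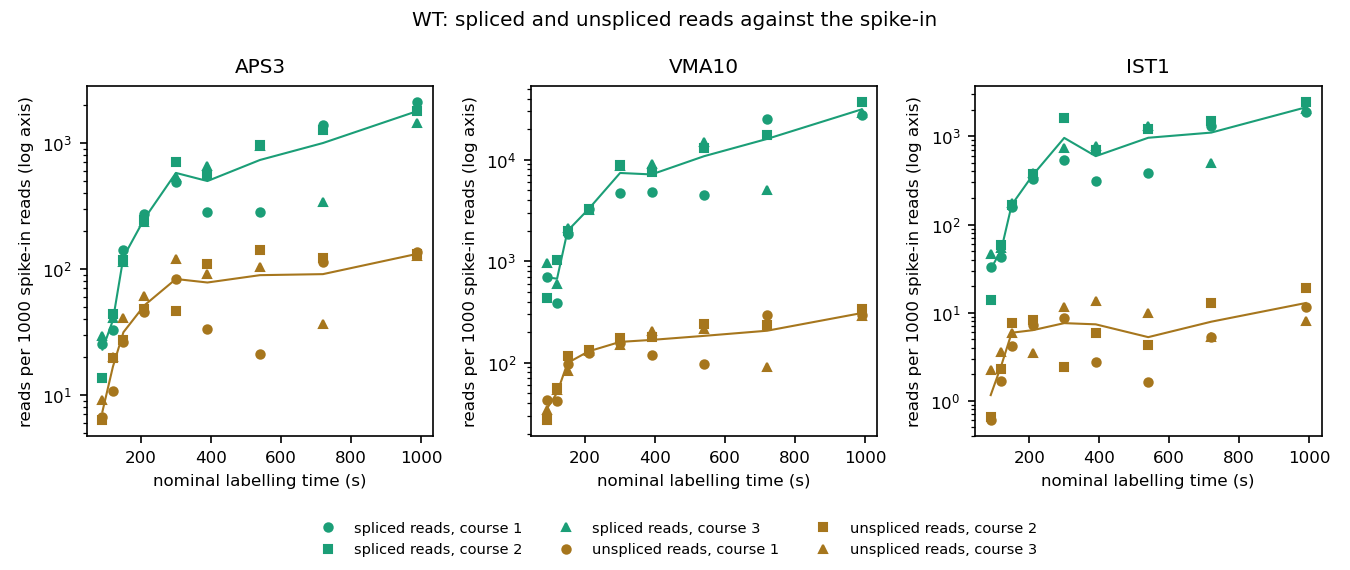
Spliced and unspliced reads per 1000 spike-in reads (log axis) against nominal labelling time in seconds in the 3 WT courses; points are libraries and lines means per time. In spliced reads of all 3 genes, course 1 at 390 and 540 s and course 3 at 720 s lie below the other courses; APS3 at 540 s had 280 spliced reads per 1000 in course 1 against 963 and 949 in courses 2 and 3.

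The introns whose course over the 9 labelled WT times lay nearest were found by the distance between mean profiles of log2 unspliced over spliced reads, among 265 introns. Nearest to APS3 were UBC13, a ubiquitin-conjugating enzyme of DNA damage tolerance (root mean square difference 0.24 on the log2 scale), YSF3, a subunit of the spliceosomal SF3b complex (0.25), and the second intron of VMA9, another vacuolar ATPase subunit (0.27). Nearest to VMA10 were HNT1, a nucleotide hydrolase (0.21), TMA20, a ribosome-associated factor (0.25), and BET1, a SNARE of transport between endoplasmic reticulum and Golgi (0.26). Nearest to IST1 were RPS19A and RPL23B, which encode ribosomal proteins (0.41 and 0.43), and NSP1, a nuclear pore protein (0.43). IST1 and VMA10 differed by 1.07, less than the median intron did from either (2.76 from IST1 and 2.05 from VMA10). APS3 differed from VMA10 by 2.59 and from IST1 by 3.61, more than the median intron did from APS3 (1.69).

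Within the unspliced reads IST1 had a far larger share of lariat intermediate than APS3 and VMA10. Over 150 to 990 s, lariat reads were 35.4%, 47.5% and 46.1% of IST1's unspliced reads in the 3 WT courses (57 of 161, 104 of 219 and 88 of 191). They were 3.94%, 5.71% and 6.48% for APS3 and 2.72%, 4.37% and 6.06% for VMA10, and the ranges of both genes lay far below that of IST1. IST1's mean of 43.0% ± 6.61 (SD, n = 3) ranked 50th of 259 introns, VMA10's 4.38% ± 1.67 ranked 215th and APS3's 5.38% ± 1.30 ranked 202nd, where the median was 18.4%. With reads that end past the branch point left out of the unspliced reads, the lariat share was 42.2%, 53.3% and 55.3% in IST1, 4.00%, 5.79% and 6.59% in APS3 and 3.75%, 5.55% and 9.79% in VMA10. VPS29 had 0 lariat reads in each of 11 prp2-1 libraries and 30 WT libraries used, and 1 lariat read in the 18 prp2-1 libraries whose labelling time could not be assigned. Among the libraries used, its 18 unspliced reads in prp2-1 allow a lariat share of up to 16.7%, counted as 3 reads of 18, and its 86 in WT allow up to 3.49%.

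None of the 3 genes passed a test of the lariat share between late and early windows in WT. Lariat reads of VMA10 were 4.74%, 5.14% and 6.88% of its unspliced reads late, against 2.00%, 3.65% and 5.45% early, higher late in 3 of 3 courses (log2 change 0.70 ± 0.39, adjusted p = 0.356). Such a count of courses was not made over all introns. APS3 had 5.34%, 5.55% and 5.40% late, against 3.51%, 5.85% and 7.38% early (-0.00 ± 0.25, adjusted p = 0.996). IST1 had 29.6%, 52.1% and 34.9% late, on 27, 48 and 43 unspliced reads, against 36.6%, 44.7% and 53.9% early (-0.30 ± 0.47, adjusted p = 0.735). Of 248 introns edgeR called 0% lower and 0% higher, with 39 at an unadjusted p below 0.05 and 3 called by DESeq2. With the course as a block 44 introns passed, none of them these genes, and VMA10 had an adjusted p of 0.0649.

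In prp2-1 the unspliced shares of APS3 and IST1 were lower than in WT, and that of VMA10 did not pass the test. Summed over 150 to 990 s, APS3 had 6.98% unspliced reads in the prp2-1 course (787 of 11282), against 10.9%, 12.8% and 14.9% in the 3 WT courses (log2 change -0.96 ± 0.26, adjusted p = 0.0147). IST1 had 0.514% in prp2-1 (90 of 17520), against 1.35%, 1.41% and 1.33% in WT (-1.42 ± 0.27, adjusted p = 0.00554). In both genes the prp2-1 course lay below all 3 WT courses. How many of all introns lay outside the WT courses, on either side, was not counted. VMA10 had 2.60% in prp2-1, against 2.38%, 2.41% and 2.03% in WT, above all 3 courses, with a change of 0.20 ± 0.33 (adjusted p = 0.613). VPS29 had 6.97% in prp2-1 on 201 reads (interval 4.19 to 11.4), against 8.33%, 11% and 8.84% in WT, too few unspliced reads for the test.

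Over 283 introns 30.7% were lower in prp2-1 and 2.12% higher, with a median change of -0.62 (64 lower and 13 higher with TMM per read state, median -0.39). IST1's change was the 24th lowest of them and APS3's the 72nd. The single prp2-1 course is taken to have the spread of the WT courses. The calls rest on the WT courses used: without WT course 2 only 4 introns passed, and APS3 (adjusted p = 0.108) and IST1 (0.0874) did not; without WT course 3 APS3 did not (0.0612). With 1 library per course, that of 300 s, none of the genes passed (APS3 -0.38 and IST1 -0.32, adjusted p = 0.976 for both). At 300 s WT course 2 stood apart: APS3 had 6.23% there against 14.4% and 18.2% in courses 1 and 3. IST1 had 0.149% against 1.59% and 1.55%.

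Time by time, APS3 was below all 3 WT libraries at 6 of the 7 shared times and IST1 at 5 of 7. Such counts were not made over all introns. At 390 s, for example, APS3 had 7.75% in prp2-1 against 10.5%, 16.4% and 12.2% in WT, and IST1 had 0.565% against 0.893%, 0.842% and 1.67%. VMA10 took another course: in prp2-1 it was above all WT libraries at 5 of these 7 times and below them at 2. At 990 s VMA10 had 2.31% in prp2-1 against 1.06%, 0.907% and 0.984% in WT, and at 210 s 3.11% against 3.64%, 3.88% and 3.92%. The 120 s libraries, also shared, were left out of these counts. There APS3 had 6.02% in prp2-1 (166 reads), against 24.6%, 30.8% and 32.9% in WT. IST1 had 5.94% (202 reads), against 3.71%, 3.78% and 6.21%, and VMA10 had 4.86%, against 9.69%, 5.20% and 8.19%.

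The change with labelling time in prp2-1 could be set against that of WT but not called different. VMA10 had 2.33% unspliced reads late in prp2-1 and 3.91% early, APS3 5.29% and 11.7%, and IST1 0.416% and 0.743%. The difference between the strains in the late against early change was 0.84 ± 0.52 in VMA10 and 0.94 ± 0.51 in IST1 (adjusted p = 0.713 for both), and -0.05 ± 0.50 in APS3 (adjusted p = 0.982). The interval of about 2 SE runs from -0.21 to 1.89 in VMA10, from -0.08 to 1.95 in IST1 and from -1.04 to 0.95 in APS3. Over 278 introns the median difference was 0.49 (-0.12 with TMM per read state). Of these introns edgeR called 0%, with 17 at an unadjusted p below 0.05 and 2 called by DESeq2; with the course as a block 10 passed, none of them these genes.

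Between the strains, the lariat share passed the test in none of the genes tested. It was 33.3% of IST1's unspliced reads in prp2-1 (30 of 90), against 35.4%, 47.5% and 46.1% in WT (-0.60 ± 0.63, adjusted p = 0.670). APS3 had 4.70% in prp2-1, against 3.94%, 5.71% and 6.48% in WT (-0.19 ± 0.50, adjusted p = 0.865). VMA10 had 5.44%, against 2.72%, 4.37% and 6.06% (0.39 ± 0.49, adjusted p = 0.703). The prp2-1 value of APS3 and of VMA10 lay among those of the WT courses. That of IST1 lay below all of them, which was not counted over all introns. The interval of about 2 SE for IST1 runs from -1.85 to 0.65. Of 261 introns 3.45% were lower in prp2-1 and 1.15% higher, with a median of -0.30. In DESeq2, scaled by library totals as the edgeR test was, 14 passed. With TMM per read state the median was 0.03 and 0 introns passed in edgeR, with 47 at an unadjusted p below 0.05. The change of APS3 then turned to 0.15.

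**Figure D3:**
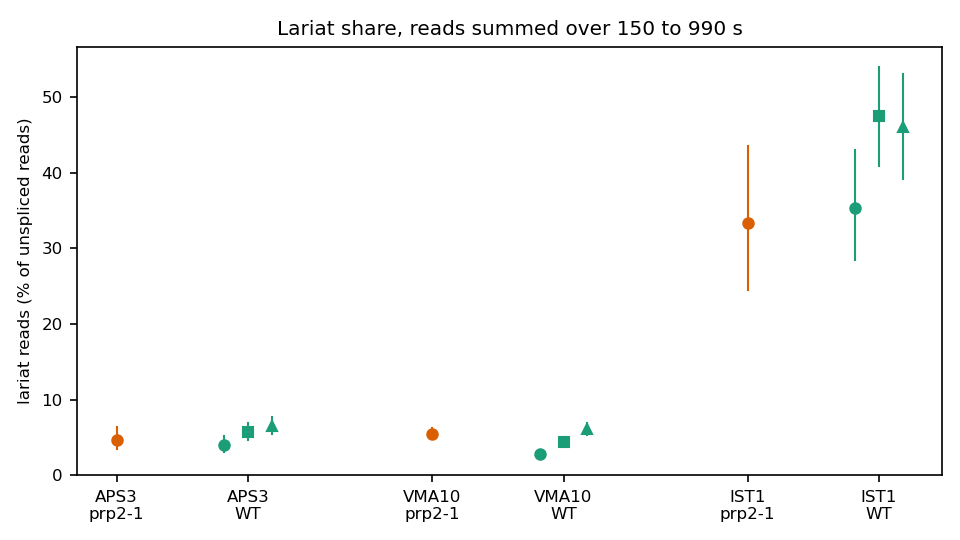
Lariat reads as a percentage of unspliced reads (linear axis), summed over 150 to 990 s, in the prp2-1 course and the 3 WT courses (circle, square and triangle for courses 1, 2 and 3); bars are 95% Wilson intervals. IST1 lies between 33.3% and 47.5%, APS3 and VMA10 at or below 6.48% in every course.

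In the WT_30 courses APS3 and IST1 also fell with labelling time, and VMA10 and VPS29 did not pass the test. Here the late window was 300, 360 and 480 s and the early one 90, 120 and 150 s. APS3 had 2.62% and 2.44% unspliced reads late in the 2 courses, against 5.78% and 6.49% early (log2 change -1.33 ± 0.18, adjusted p = 0.00255). IST1 had 3.44% and 3.29% late, against 6.73% and 6.56% early (-1.03 ± 0.18, adjusted p = 0.00395). VMA10 had 9.03% and 10.3% late, against 11.4% and 13.0% early (-0.37 ± 0.21, adjusted p = 0.142). VPS29, which had enough reads here, had 7.78% and 5.58% late, against 9.26% and 11.7% early (-0.71 ± 0.39, adjusted p = 0.146). All 4 genes were lower late in 2 of 2 courses, which was not counted over all introns.

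Of 282 introns 65.6% were lower late and 0% higher, with a median of -0.73. With TMM per read state (median 0.06) 0 introns passed in edgeR, 84 had an unadjusted p below 0.05, and APS3 (-0.55) and IST1 (-0.25) kept their sign while VMA10 (0.41) and VPS29 (0.07) turned positive. At 3600 s the shares were 1.72% and 1.47% for APS3, 1.76% and 1.88% for VMA10 and 2.39% and 1.94% for IST1, and VPS29 had 0 unspliced of 89 and 49 reads. VMA10 stood at 8.68% and 8.05% at 480 s, well above its values at 3600 s, whereas APS3 had 1.84% and 1.89% at 480 s. Between 480 and 90 s the spliced reads of VMA10 per 1000 spike-in reads differed 13.8- and 11.7-fold and its unspliced reads 11.95- and 7.16-fold, those of APS3 25.3- and 14.4-fold spliced and 7.84- and 4.06-fold unspliced. Reads found in unlabelled libraries were not subtracted from these.

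Set against WT at the same labelling times (90, 120, 150 and 300 s), WT_30 had a lower unspliced share of APS3 and higher shares of VMA10 and IST1, and APS3 was no longer the highest of the 3. APS3 had 4.57% and 5.11% unspliced reads in the WT_30 courses, against 15.8%, 19.8% and 23.7% in the WT courses (log2 change -2.26 ± 0.29, adjusted p = 1.5e-06). VMA10 had 11.1% and 12.7% in WT_30, against 4.67%, 4.97% and 3.44% in WT (1.58 ± 0.29, adjusted p = 0.000104). IST1 had 5.58% and 5.29% in WT_30, against 2.13%, 2.93% and 3.12% in WT (1.05 ± 0.29, adjusted p = 0.00378). In none of the 3 genes did the courses of the series overlap, and the libraries of both series were apart at 4 of 4 times for each gene. Neither was counted over all introns. APS3 was above VMA10 in 0 of 18 labelled WT_30 libraries, against 27 of 27 in WT, and above IST1 in 5 of 18, against 27 of 27 in WT.

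VPS29 had 9.80% and 9.57% unspliced reads in WT_30 (59 of 602 and 53 of 554), against 12.4%, 37.3% and 13.8% in WT (19 of 153, 19 of 51 and 13 of 94). It was lower in WT_30 than in each WT course and did not pass the test (-1.06 ± 0.48, adjusted p = 0.0586). It passed without WT course 1 (-1.48, adjusted p = 0.0355), without WT course 3 (-1.29, adjusted p = 0.0171) and with TMM per read state (-1.29, adjusted p = 0.0435). Of 284 introns 28.2% were lower in WT_30 and 37.7% higher, with a median of 0.32, so changes in both directions were common; APS3 was the 28th lowest and VMA10 the 232nd. The spike-in differed between the series, and whatever else distinguishes the experiments cannot be told apart from the label. Lariat reads of WT_30 were not analysed here.

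**Figure D4:**
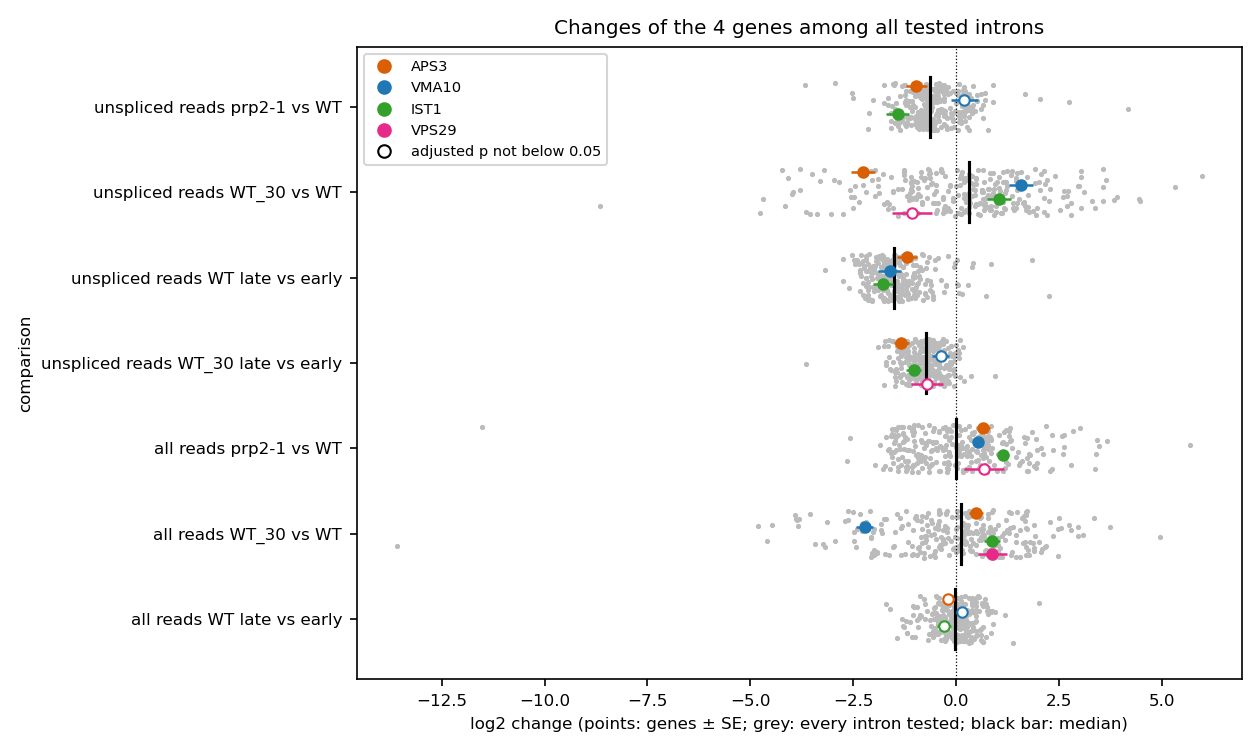
Log2 changes (linear axis) of the 4 genes with their SE among all introns tested in 7 comparisons; filled points passed an adjusted p of 0.05, open ones did not, grey points are single introns and black bars medians. In WT_30 against WT, APS3 (-2.26) and VMA10 (1.58) lie on opposite sides in unspliced reads, and VMA10 (-2.22) is lower in all reads; with TMM per read state the WT late vs early change of APS3 turns from -1.19 to 0.32.

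All reads of a target, in reads per 1000000 reads of the intron targets (rpm), describe its share of the purified RNA, with any unlabelled RNA included. In bulk cultures fewer cells with the RNA and less RNA per cell cannot be told apart. In prp2-1 the shares of APS3, VMA10 and IST1 were higher than in WT. Over 150 to 990 s IST1 had 1372 rpm in prp2-1, against 388, 450 and 405 in WT (log2 change with TMM 1.14 ± 0.16, adjusted p = 0.00266). APS3 had 883, against 410, 368 and 334 (0.67 ± 0.16, adjusted p = 0.0170), and VMA10 had 10673, against 5016, 5029 and 4717 (0.53 ± 0.13, adjusted p = 0.0159). VPS29 had 15.7, against 9.76, 5.80 and 4.16 (0.68 ± 0.50, adjusted p = 0.270). All 4 genes lay above every WT course, and IST1, APS3 and VMA10 lay above every WT library at 7 of 7 times from 150 to 990 s. Such counts were not made over all introns. Plain rpm is scaled by library totals alone, on which the median intron was itself higher in prp2-1 by 0.57.

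Over 284 introns 34.5% were lower in prp2-1 and 32% higher (98 and 91 introns). Scaled by library totals alone, where the median moved by 0.57, 53 were lower and 129 higher and the changes were 1.73 in IST1, 1.25 in APS3 and 1.12 in VMA10. With 1 library per course, that of 300 s, none of the 3 passed (IST1 0.42, APS3 0.52 and VMA10 0.07). In it IST1 had 966 rpm in WT course 2, against 483 and 410 in courses 1 and 3, while APS3 had 449 against 507 and 358.

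In WT_30, VMA10 took a smaller share of all reads than in WT and the other 3 genes larger ones. VMA10 had 1356 and 1494 rpm in the WT_30 courses, against 4461, 5365 and 4597 in the WT courses (-2.22 ± 0.21, adjusted p = 3.6e-06). IST1 had 852 and 1207 in WT_30, against 419, 454 and 351 in WT (0.87 ± 0.19, adjusted p = 0.00184). APS3 had 609 and 787, against 433, 349 and 309 (0.49 ± 0.18, adjusted p = 0.0283), and VPS29 had 17.3 and 22.4, against 13.4, 5.52 and 5.24 (0.88 ± 0.35, adjusted p = 0.0406). The courses of both series did not overlap in any of the 4 genes, which was not counted over all introns.

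The calls of APS3 and VPS29 did not hold throughout: APS3 did not pass without WT course 2 (adjusted p = 0.0674), WT course 3 (0.0740) or WT_30 course 2 (0.179), and VPS29 not without WT course 2 (0.0991) or either WT_30 course (0.127 and 0.217). Over 284 introns 34.5% were lower in WT_30 and 37.3% higher (98 and 106 introns), and 67 and 145 with library totals alone, where the median moved from 0.13 to 0.59; VMA10 then changed by -1.75. Between late and early windows of WT none of the 3 tested genes passed in all reads (VMA10 0.14, APS3 -0.18 and IST1 -0.29, adjusted p = 0.446, 0.403 and 0.258), where 4.73% of 275 introns were lower and 4% higher. With the course as a block 131 introns passed in place of 24, none of them these genes.

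**Figure D5:**
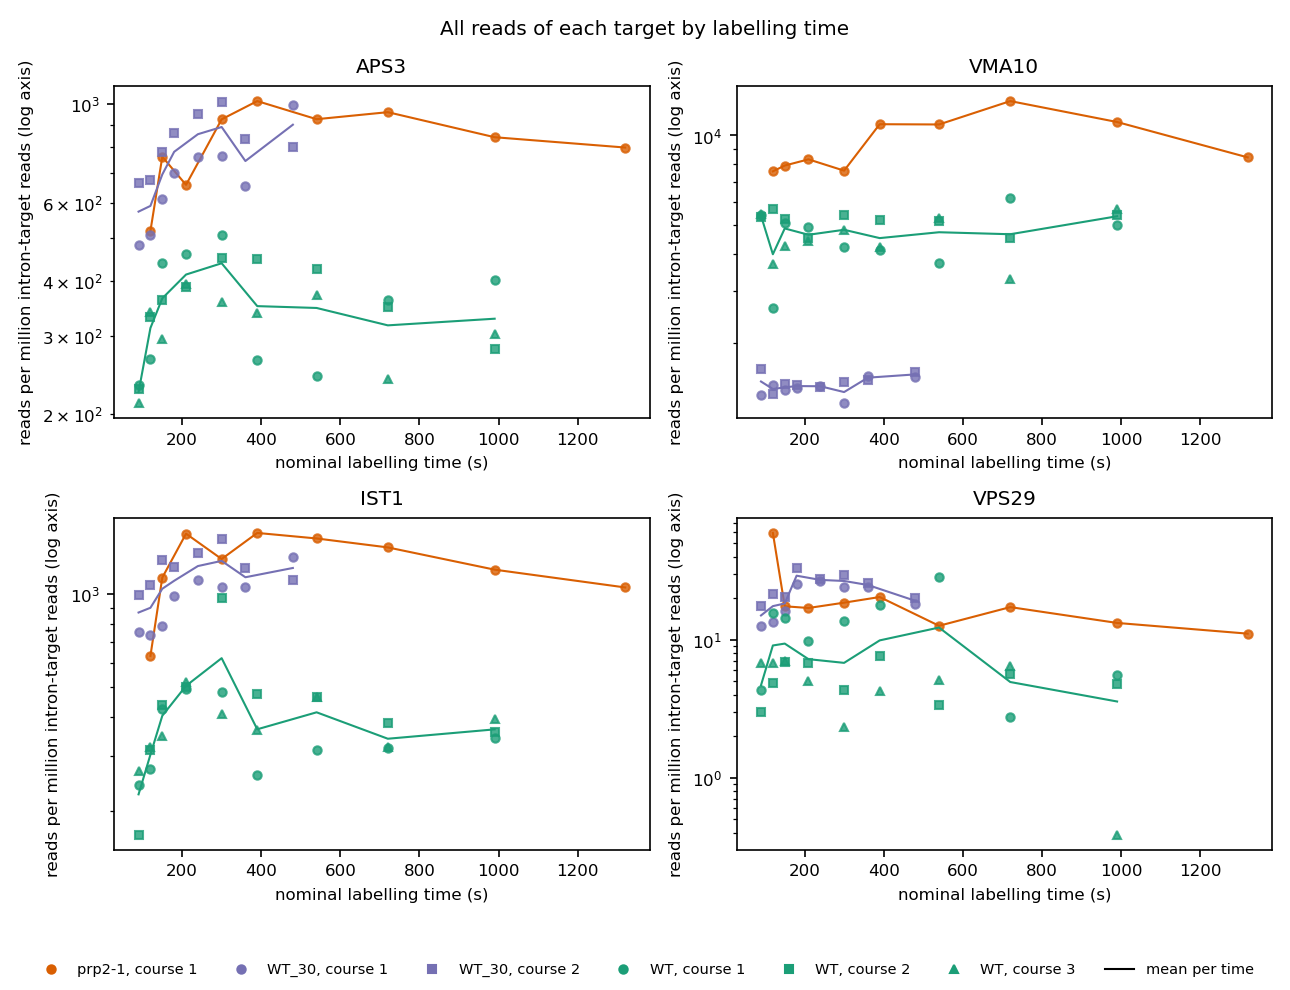
Reads of each target in rpm (log axis) against nominal labelling time in seconds; points are libraries and lines means per time, and the 3600 s libraries of WT_30 are not drawn. VMA10 lies lowest in WT_30 (1356 and 1494 over the shared times) and highest in prp2-1 (10673 over 150 to 990 s), and the VPS29 points of WT rest on at most 70 reads each.

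Other target genes of membrane traffic and the vacuole were followed as a list of 18 genes with 20 introns. All 20 were lower late than early in WT (list median -1.79), where 90.9% of all introns tested were lower (median -1.52), led by the second intron of YOS1 (-2.32 ± 0.23, adjusted p = 4.6e-06) and by SFT1 (-2.26 ± 0.22, adjusted p = 4.6e-06), which serve transport to and within the Golgi. In WT_30, 19 of 20 were lower late (median -0.996), where 65.6% of all introns were lower (median -0.73), led by SFT1 (-1.71 ± 0.26, adjusted p = 0.00309) and the second YOS1 intron (-1.69 ± 0.22, adjusted p = 0.00228). In prp2-1 against WT 8 of 20 were lower in unspliced reads and 0 higher (median -0.65), near the 30.7% lower and 2.12% higher of all introns (median -0.62), among them the second YOS1 intron (-1.37 ± 0.26, adjusted p = 0.00554) and ERD2, the receptor that retrieves luminal proteins to the endoplasmic reticulum (-1.20 ± 0.34, adjusted p = 0.0172).

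In WT_30 against WT 8 of the 20 were lower and 4 higher in unspliced reads (median -0.36), where 28.2% of all introns were lower and 37.7% higher (median 0.32). The Rab-binding protein gene YIP3 (-3.78 ± 0.36, adjusted p = 3.3e-08) and the second YOS1 intron (-2.51 ± 0.29, adjusted p = 4.3e-07) were lower, while ERD2 (2.80 ± 0.31, adjusted p = 1.7e-07) and BET4, a prenyltransferase subunit acting on Rab proteins (2.27 ± 0.32, adjusted p = 5.6e-06), were higher. In all reads 11 of 20 were higher in prp2-1 than in WT and 0 lower (median 0.58), where 32% of all introns were higher and 34.5% lower (median -0.01), led by YSC84, an actin-binding protein of endocytosis (2.34 ± 0.20, adjusted p = 0.00151), and SNC1, a SNARE of secretory vesicles (1.54 ± 0.27, adjusted p = 0.00528). In all reads of WT_30 against WT 7 were lower and 9 higher (median -0.05), where 34.5% of all introns were lower and 37.3% higher (median 0.13). The lower ones were led by ERD2 (-2.004 ± 0.22, adjusted p = 8.4e-06) and SEC17, which helps to take SNARE complexes apart (-1.998 ± 0.26, adjusted p = 3.5e-05). The higher ones were led by the second YOS1 intron (3.73 ± 0.21, adjusted p = 1.4e-07) and YIP3 (2.17 ± 0.20, adjusted p = 3.1e-06). In all reads between late and early WT windows 0 were lower and 4 higher (median 0.30), where 4.73% of all introns were lower and 4% higher (median -0.01), led by SFT1 (0.91 ± 0.17, adjusted p = 0.0150) and the first YOS1 intron (0.83 ± 0.17, adjusted p = 0.0240). None passed in lariat reads in either comparison (list medians 0.28 late against early in WT, -0.41 in prp2-1 against WT).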

How the data were processed

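Newly made RNA was measured by MPE-seq. The submitters' processing notes name STAR 2.7.2b and build R64; how reads were assigned to introns is not given in the sources used here. The deposited counts of all, unspliced, lariat and past-branch-point reads are whole numbers, which the authors left unscaled, per the file headers; their scaled tables were not used. Spliced reads were taken as all less unspliced reads, and 5 spike-in rows were kept out of library sizes and fits. Of the prp2-1 columns 18 per table could not be matched to a sample title with certainty and entered no comparison.

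The time course was the replicate. No label says that courses are separate cultures, so p-values cover only how these courses differ, which may be technical. Reads were summed per course and window, and each course gave edgeR 4.0.16 (R 4.3.3) 2 columns, unspliced and spliced reads or lariat reads and the remaining unspliced ones; the interaction of group and state went into a quasi-likelihood test scaled by library totals, Benjamini-Hochberg adjusted over all introns at 0.05. All reads were tested with TMM factors. Minimum means were 20 unspliced with 100 total reads, 20 unspliced with 5 lariat reads, and 100 reads for the 3 kinds of test. Profiles used a pseudocount of 0.5. SE is the log2 change over the square root of F. The scripts were tested on simulated data. Alternatives were DESeq2 1.42.0, TMM per read state, other count minimums, 1 library per course, a replicate block, omission of past-branch-point reads and leaving out each course. The 1 library was that of 300 s for prp2-1 against WT and of 150 s for WT_30 against WT. For late and early windows it was 990 and 150 s, or 480 and 90 s in WT_30. In WT, the windows of each course deviated together (correlations 0.648, 0.374 and 0.618). The main tests left this pairing out, and only the alternative with a replicate block took it up.

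The genes and lists were chosen with earlier results of these data known. Named genes are the 4 genes, for each the 3 introns nearest in profile, and for the list the 2 called introns with the largest change in each direction.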

Additional observations from a re-analysis of the deposited data

Results flagged for a closer look

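The 18 prp2-1 libraries whose labelling time could not be assigned entered no comparison, and the median unspliced shares of APS3 and VMA10 in them lay above the highest WT library at 0 s. The unspliced share of APS3 had a median of 8.43% over the 17 of these libraries with at least 100 APS3 reads (range 3.09% to 40.9%), above the highest WT library at 0 s (7.41%). That of VMA10 had a median of 2.54% over 18 libraries (1.17% to 10.9%), above 0.563%, the highest of the WT libraries at 0 s. The prp2-1 samples left without a column have nominal times from 120 to 1320 s, apart from a single 0 s sample, but which library is which is not known. In the assigned prp2-1 course labelled libraries ran from 3.25% to 14.3% for APS3 and from 1.52% to 5.73% for VMA10. A median above WT at 0 s therefore marks no difference between the strains. VPS29 had a median of 7.70% over the 10 of these libraries with at least 20 reads of it (0% to 28.8%), while the WT libraries at 0 s had 0, 4 and 2 reads of it, 0 of them unspliced, too few for a comparison. In the 18 libraries VPS29 had 1 lariat read.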

How the results depend on the processing

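Over the 10 comparisons, 85 of 95 counts of genes called were the same as reported or within 1.5 times. With TMM per read state 0 of these genes passed late against early in WT and 0 in WT_30. With 1 library per course 0 passed in prp2-1 against WT for unspliced and 0 for all reads, and 2 in WT_30 against WT for all reads, as did 2 with DESeq2. Leaving out 1 course, the genes called numbered 0 to 2 (unspliced, prp2-1 against WT), 3 to 4 (unspliced, WT_30 against WT), 2 to 4 (all reads, WT_30 against WT), 3 (WT late against early), 3 (all reads, prp2-1 against WT) and 0 elsewhere. The cause was not tested. The signs that turned were those of APS3 with TMM per read state late against early in WT (0.32), of VPS29 (0.071) and VMA10 (0.41) in WT_30, and of values near 0. Near 0 were the difference between strains in APS3's change (-0.15 to 0.10 when a WT course was left out, 0.0099 without its 300 s library) and the lariat share of APS3 late against early (0.014 with TMM per read state, 0.0012 with DESeq2, 0.26 with 1 library per course, 0.021 without reads past the branch point, and -0.29 to 0.27 when a WT course was left out). IST1's lariat change was -0.76 to 0.14 when a WT course was left out (0.14 without course 3), and APS3's in prp2-1 against WT 0.15 with TMM per read state.

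Counts over all introns moved by more than 1.5 times for unspliced reads in WT late against early (56 with TMM against 254), WT_30 late against early (0 against 185) and prp2-1 against WT (0 with 1 library per course and 4 to 74 without a WT course, against 93). For lariat reads in prp2-1 against WT, 12 introns passed, 0 with TMM per read state, without a filter or with 1 library per course, 5 with minimums raised 5 times, 7 without reads past the branch point and 0 to 22 without a WT course. Lariat reads late against early in WT gave 4 with TMM, 1 with raised minimums, 3 with DESeq2 and 2 with 1 library per course, against 0. The change between strains gave 2 with DESeq2 and 2 without reads past the branch point, against 0. All reads late against early in WT gave 68 with DESeq2, 51 with 1 library per course and 0 to 44 without a course, against 24, and in prp2-1 against WT 27 with 1 library per course, against 189.

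The replicate block by course changed no call of these genes within a series (APS3 -1.20, VMA10 -1.61 and IST1 -1.78 late against early in WT). WT_30 and WT courses share only numbers; deviations of same-numbered courses correlated at -0.000687 and 0.138. With that block VPS29 passed in unspliced reads (-1.34, adjusted p = 0.000436) and APS3 did not in all reads (0.41, adjusted p = 0.170). WT_30 late against early could not be fitted without a course, prp2-1 has a single course, and the WT_30 comparisons could not be run without reads past the branch point. The low depth of VPS29 limits every statement on it. The 300 s library of WT course 2, left out as an alternative chosen after seeing the data, and an early window from 90 s changed no call of the 4 genes.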
